A study of Mus musculus with 6 samples.

Results

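The extracellular matrix genes examined here code for the collagens, the laminins and the integrin receptors that bind them. They were chosen by symbol, as every gene named *Col*, *Lam* or *Itg* in the pattern of a collagen, laminin or integrin chain. 86 symbols met the pattern and 4 that code for integrin-binding or integrin-like proteins (*Itgb1bp1*, *Itgb1bp2*, *Itgb3bp* and *Itgbl1*) were left out. The 82 genes that remained, of 53801 mouse genes listed, comprised 44 collagens, 11 laminins and 27 integrins. RNA was sequenced from 6 clonal lines of MIN6, a mouse insulinoma line used as a model of pancreatic β cells. All 6 lines stably expressed Cas9, the nuclease that a guide RNA (gRNA) directs to a matching DNA site, and all had received a lentiviral gRNA and puromycin selection. In 3 control clones the gRNA targeted an intron of *Snd1* (intron 2 in the sample labels). In 3 *Snd1* KO clones a gRNA targeted *exon 2*, part of the coding region of this nuclease and transcriptional coregulator. The study lists 2 gRNAs for *exon 2* and sets its clones KO1 and KO2 under 1 and KO3 under the other. These clone numbers may not be those of the libraries. Each clone was expanded from a single cell and contributed 1 library, so that the spread within a group is the spread between cell lines, and a difference between groups rests on 3 lines against 3.

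Collagens are secreted proteins in which 3 chains wind into a triple helix. Fibrillar collagens assemble into fibers, collagen IV forms the network of basement membranes, and fibril-associated collagens decorate the fibers. Laminins are trimers of 1 α, 1 β and 1 γ chain and form the other network of the basement membrane, the sheet on which epithelial and endocrine cells rest. Integrins are receptors of 1 α and 1 β chain that span the plasma membrane and link this sheet to the cytoskeleton. In the islet, the basement membrane that β cells contact is laid down largely by the endothelial cells of the capillaries, and β cells bind its laminins mainly through integrins that contain the β1 chain.

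The targeted gene was examined first. *Snd1* (chromosome 6, 28475139 to 28935162, plus strand, GRCm38) was at 113, 119 and 112 TPM (reads on a gene per unit of its length, scaled to a sum of 1000000 per clone) in Control 1, 2 and 3 and at 14.7, 57.1 and 19.9 TPM in *Snd1* KO 1, 2 and 3. All *Snd1* KO clones lay below all control clones. RNA remained in each, at a mean of 26.7% of control. Between 25805417 and 32992441 reads per clone fell on genes, as recovered from the deposited values. The study states fewer reads per library than this, so that both mates of a pair may have been counted, and read counts given here, the floor of 3 reads included, may then stand for fewer fragments. Of 12 β cell marker genes examined, all had a mean above the filter used here (0.5 TPM), although *Ucn3* passed it only through *Snd1* KO 1, at 41.6 TPM compared to 0.273 to 0.680 TPM in the other clones. Across 17823 genes, Control 3 resembled *Snd1* KO 3 (Pearson r = 0.959) as closely as it did Control 1 (0.954) or Control 2 (0.951), whereas Control 1 and Control 2 correlated at 0.978. Each r is across genes, which are not independent replicates.

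The deposited TPM divide by the summed exon length of all transcripts of a gene, which is longer than the exonic sequence by a median factor of 1.67. Levels of different genes were therefore mainly compared as per-length TPM, which were recomputed with each exonic base counted once. Values given as TPM alone, and the sums of marker lists, are on the deposited scale. On this scale the integrins of the 6 clones summed to a mean of 502 per-length TPM, the collagens to 107 and the laminins to 35.7. *Itgb1*, the β1 integrin chain, had the highest level of all members with a mean of 289 per-length TPM over the 6 clones. It was followed by *Itgav*, the αv chain of receptors for the RGD motif (78.6), *Itgb5*, a β partner of αv (58.8), and *Itga6*, the α6 chain of laminin receptors (43.8). The collagen with the highest level was *Col16a1*, a fibril-associated collagen (33.1), followed by the fibrillar collagen *Col27a1* (18.5) and *Col6a3*, a chain of the collagen VI microfibril (15.0). Among laminins, *Lamc1*, the γ1 chain (16.3), and *Lama5*, the α5 chain (12.7), were ahead of *Lama1*, the α1 chain (4.27). The classical fibrillar collagens of connective tissue had low means that pooled clones at unlike levels, with *Col3a1* at 0.483, *Col1a1* at 0.310 and *Col1a2* at 0.181 per-length TPM.

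**Figure D1:**
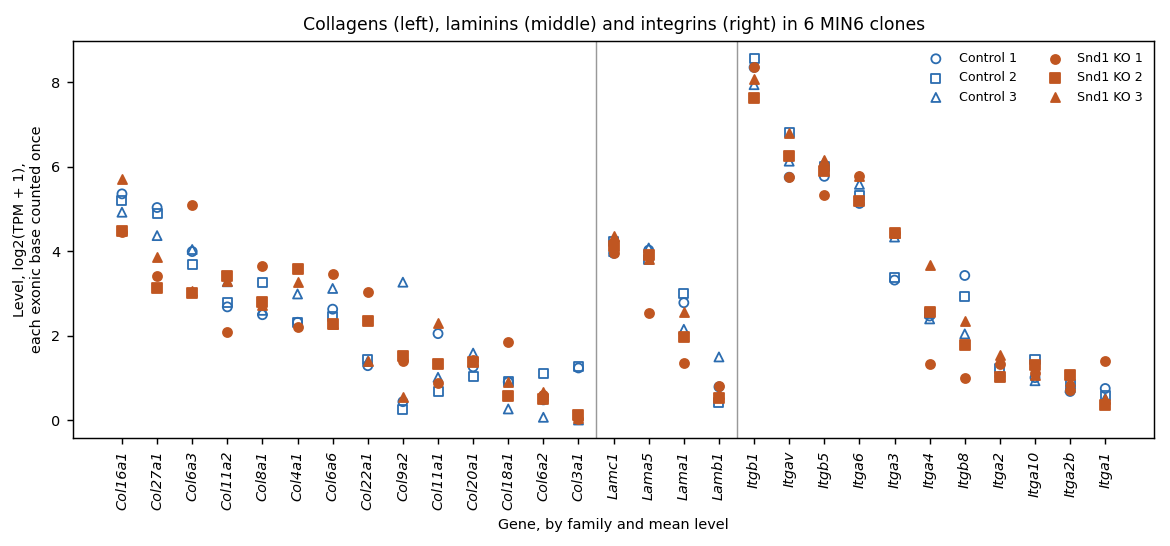
The y axis shows the level of 29 members tested as log2(per-length TPM + 1), and the x axis lists them within collagens, laminins and integrins in order of the mean. Open blue symbols are the 3 control clones and filled orange symbols the 3 *Snd1* KO clones. Symbols of both colors intermingle in nearly every column, except for *Col27a1* and *Itga3*.

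Of the 82 members, 30 had a mean of at least 0.5 TPM over the 6 clones and were tested, which is 36.6% of them (14 collagens, 5 laminins and 11 integrins). A further 11 members were at or below 3 reads in every clone, including *Itgax*, an α chain of leukocytes, with 0 reads in all 6. Differences between the groups were estimated by limma on log2(TPM + 1), with p-values adjusted by the Benjamini-Hochberg method over all 17823 genes tested. A difference on this scale understates the difference of genes with low TPM. No member was called, which required a difference of at least 2-fold with an adjusted p-value under 0.05. The background share of calls under this rule was 0.00561% (1 of 17823 genes), and *Snd1* itself, at a log2 difference of -2.11 (SE 0.45, adjusted p = 0.511 in limma), was not among them. At an unadjusted p under 0.05 and at least 2-fold, 1 of 30 members (3.33%) passed, namely *Col27a1*, which was lower. The background share was 2.24%, with 1.52% of genes higher and 0.724% lower. By unadjusted p alone, 2 members passed, *Col27a1* and *Itga3*, beside a background of 7.96%. The groups did not overlap in the same 2 members (6.67%), against 13.7% of all genes tested, of which 9.69% were above and 4.03% below control. The 2 members differed in sign, with *Itga3* above and *Col27a1* below control.

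The medians of the 3 families lay on either side of 0. Of the 14 collagens tested, 8 were higher and 6 lower in *Snd1* KO, with a median log2 difference of 0.04. Of the 5 laminins, 2 were higher and 3 lower, with a median of -0.24, and of the 11 integrins, 8 were higher and 3 lower, with a median of 0.04. Among all genes tested, 57.3% were higher, with a median of 0.04. The laminin median depended on single clones and ranged from -0.46 without Control 2 to 0.04 without Control 3.

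**Figure D2:**
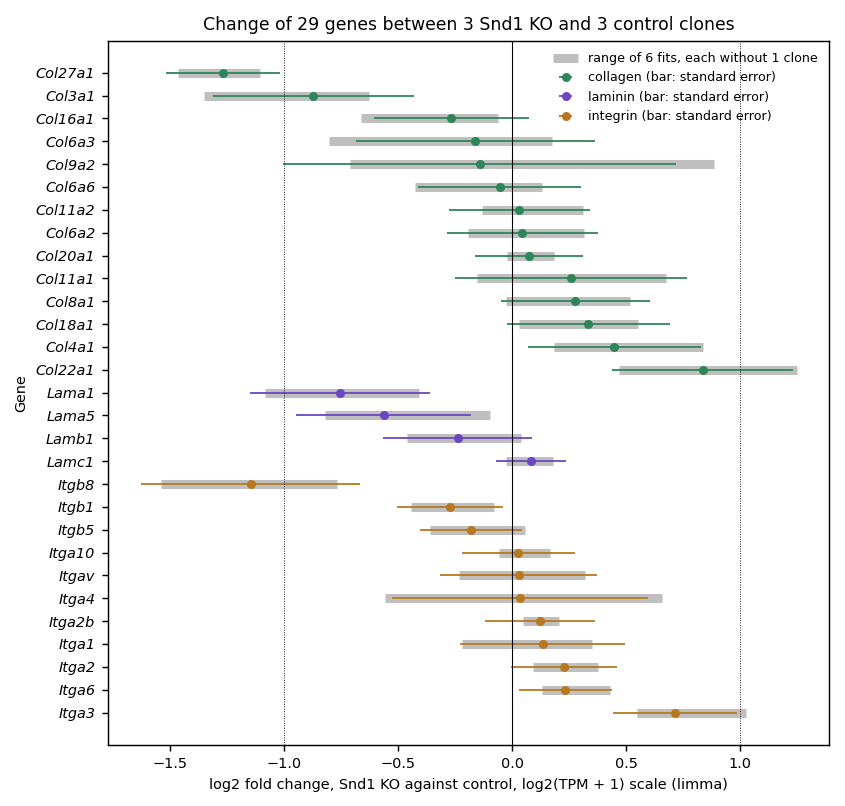
The x axis shows the log2 difference between *Snd1* KO and control on the log2(TPM + 1) scale for 29 members tested, listed on the y axis by family. Points are limma estimates from 3 against 3 clones, thin bars their standard errors, and gray bars the range of estimates when each clone was left out in turn. The gray bar of *Col27a1* lies wholly below -1, whereas 15 of the 29 gray bars cross 0.

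*Col27a1* (chromosome 4, 63214004 to 63334991, plus strand) codes for a fibrillar collagen known best from the growth plate of cartilage. It was at 21.9, 19.7 and 13.4 TPM in Control 1, 2 and 3 and at 6.60, 5.31 and 9.22 TPM in *Snd1* KO 1, 2 and 3. The groups did not overlap, and the highest *Snd1* KO clone lay below the lowest control clone, Control 3. Control clones averaged 18.3 ± 4.39 TPM and *Snd1* KO clones 7.04 ± 1.99 TPM (SD, n = 3 each), or 38.4% of control. In limma the log2 difference was -1.27 (SE 0.25, unadjusted p = 0.00171, adjusted p = 0.423). The exact two-sided permutation test gave p = 0.1, the smallest that 3 against 3 clones allow. With any 1 clone left out the difference stayed between -1.46 and -1.11. Of the alternatives run, *Col27a1* passed the threshold only when clones were weighted by quality (log2 difference -1.17, adjusted p = 0.0224 in limma, with a range of 0.0224 to 0.983 over the alternatives), a fit that called 5.02% of all genes tested. Its weights were estimated from the spread of these same data. They were 0.279 for Control 3 and 0.286 for *Snd1* KO 1, compared to 0.672 to 3.91 for the other clones.

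*Col16a1*, the member of the collagens with the highest level, had a different distribution. It was at 16.3, 14.6 and 11.9 TPM in the control clones and at 8.46, 8.70 and 20.7 TPM in *Snd1* KO 1, 2 and 3. *Snd1* KO 3 was the highest of all clones and the other two *Snd1* KO clones were the lowest, so that the groups overlapped (log2 difference -0.27, SE 0.34, adjusted p = 0.850 in limma). Leaving out *Snd1* KO 1 gave -0.06, and leaving out *Snd1* KO 3 gave -0.66. Per length, *Col27a1* amounted to 79.4%, 80.4% and 67.0% of *Col16a1* in the control clones and to 46.3%, 36.2% and 26.4% in the *Snd1* KO clones. *Col27a1* accounted for 23.6 ± 4.79% of the summed collagen level in control and 10.1 ± 1.65% in *Snd1* KO (SD, n = 3 each). This ratio carries the difference in *Col27a1* given above and is not a separate result.

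Collagen VI is assembled from *Col6a1*, *Col6a2* and a variable chain, of which *Col6a3* is the common form and *Col6a6* a less common one. *Col6a3* was at 7.58, 6.05 and 7.79 TPM in control and at 16.7, 3.56 and 3.72 TPM in *Snd1* KO 1, 2 and 3. *Snd1* KO 1 was above every control clone and the other two *Snd1* KO clones were below, a 4.68-fold range among *Snd1* KO clones compared to 1.29-fold among control clones. *Col6a6* showed the same order of *Snd1* KO clones, with 3.84, 3.28 and 5.64 TPM in control and 7.32, 2.84 and 2.85 TPM in *Snd1* KO. The mean difference of either gene was small (log2 -0.16 and -0.05), and without *Snd1* KO 1 it was -0.80 and -0.43. Per length, the obligate partners averaged 0.111 (*Col6a1*) and 0.517 TPM (*Col6a2*), compared to 15.0 TPM for *Col6a3*. *Col6a1* had 14, 10 and 0 reads in control and 0, 0 and 2 in *Snd1* KO, and *Col6a2* had 30, 82 and 3 reads in control and 35, 28 and 42 in *Snd1* KO.

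Other collagens above the filter also differed mainly between single clones. *Col22a1*, a fibril-associated collagen of tissue junctions, was at 1.21, 1.41 and 1.34 TPM in control and at 5.92, 3.38 and 1.34 TPM in *Snd1* KO 1, 2 and 3. The control clones were within 1.17-fold, and *Snd1* KO 3 lay among them, whereas the other two *Snd1* KO clones were above. The log2 difference was 0.84 (SE 0.40, adjusted p = 0.607 in limma), the largest positive value of any member tested, and was 0.47 without *Snd1* KO 1. *Col8a1*, a short-chain collagen that forms networks, was at 5.71, 10.4 and 6.17 TPM in control and at 14.1, 7.25 and 6.83 TPM in *Snd1* KO. The groups overlapped, and without *Snd1* KO 1 its log2 difference of 0.28 was -0.03. *Col9a2*, a collagen IX chain of cartilage, was at 0.419, 0.220 and 10.2 TPM in control and at 1.91, 2.22 and 0.540 TPM in *Snd1* KO. Control 3 alone carried it at a high level, with 210 reads compared to 10 and 5 in the other control clones. Its log2 difference was -0.14, and without Control 3 it was 0.89. *Col11a2*, a collagen XI chain, was at 1.25, 1.35 and 1.99 TPM in control and 0.740, 2.22 and 2.02 TPM in *Snd1* KO, with a log2 difference of 0.03.

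Collagen IV of most basement membranes is a trimer of 2 α1 chains and 1 α2 chain. The genes of both chains, *Col4a1* and *Col4a2*, lie head to head on chromosome 8 (11198423 to 11312826, minus strand, and 11312805 to 11449287, plus strand, GRCm38), and their annotations overlap by 22 bases. The promoter windows of both are shown here because the genes share this stretch of DNA while their RNA levels differed widely. They span 250 bases before to 50 bases after the annotated RNA start and were taken from RefSeq (GRCm38.p6), each written 5′ to 3′ in the direction of its gene. The 78 bases in capitals, from 11312777 to 11312854, belong to both windows and read as reverse complements of each other.
*Col4a1*, chr8:11312777-11313076, minus strand: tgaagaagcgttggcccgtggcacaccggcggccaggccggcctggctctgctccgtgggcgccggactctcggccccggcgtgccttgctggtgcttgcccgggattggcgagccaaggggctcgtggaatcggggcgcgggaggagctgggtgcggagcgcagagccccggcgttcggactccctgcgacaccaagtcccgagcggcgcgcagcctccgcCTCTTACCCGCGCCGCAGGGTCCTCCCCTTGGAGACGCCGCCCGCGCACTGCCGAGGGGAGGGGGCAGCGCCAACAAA
*Col4a2*, chr8:11312555-11312854, plus strand: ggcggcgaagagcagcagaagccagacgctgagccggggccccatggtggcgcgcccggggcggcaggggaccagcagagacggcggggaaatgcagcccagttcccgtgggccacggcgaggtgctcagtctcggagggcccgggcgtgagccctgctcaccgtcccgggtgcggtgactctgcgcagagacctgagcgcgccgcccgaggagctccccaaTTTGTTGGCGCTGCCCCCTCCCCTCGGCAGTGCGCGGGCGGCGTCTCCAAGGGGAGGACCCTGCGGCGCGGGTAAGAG
Searched on both strands, the GC box letters GGGCGG occurred once in the *Col4a1* window and 3 times in the *Col4a2* window, and 1 match lay in the shared bases. They occurred in 35.7% of 32851 mouse promoter windows of this length and in 35 of the 65 windows found for 59 members. The CCAAT box letters CCAAT occurred once in each window, in *Col4a1* outside the shared bases and in *Col4a2* not wholly within them (37.4% of all windows, 17 of 65 member windows). The TATA box letters TATAAA were found in neither window (13.6% of all windows, 5 of 65 member windows).

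In RNA, *Col4a1* was at 2.78, 2.77 and 4.80 TPM in Control 1, 2 and 3 and at 2.48, 7.60 and 6.02 TPM in *Snd1* KO 1, 2 and 3. *Snd1* KO 2 and *Snd1* KO 3 were above all control clones and *Snd1* KO 1 was the lowest of all, so that the groups overlapped (log2 difference 0.45, SE 0.38, adjusted p = 0.758 in limma). Leaving out *Snd1* KO 1 gave 0.83, and leaving out *Snd1* KO 2 gave 0.18. *Col4a2* had 13, 16 and 7 reads in the control clones and only 2, 0 and 6 in *Snd1* KO. The groups of *Col4a2* did not overlap, with *Snd1* KO lower, but it was under the filter, its 0 reads in *Snd1* KO 2 allow a level of up to 3 reads, and the counting error of such values is large. *Col4a2* was named after its values were seen, and without a filter the groups did not overlap in 10.4% of all genes. Per length, *Col4a2* was at 5.37%, 6.99% and 1.94% of *Col4a1* in control and at 1.03%, 0% and 1.23% in *Snd1* KO. In each of the 6 clones the partner chain was thus far below the level of *Col4a1*. The remaining collagen IV genes, which also lie in head-to-head pairs, were low too, with at most 20 reads on *Col4a5* (per-length mean 0.159 TPM, compared to 0.128 for *Col4a2*) and at most 4 reads on *Col4a3*, *Col4a4* or *Col4a6* in any clone.

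**Figure D3:**
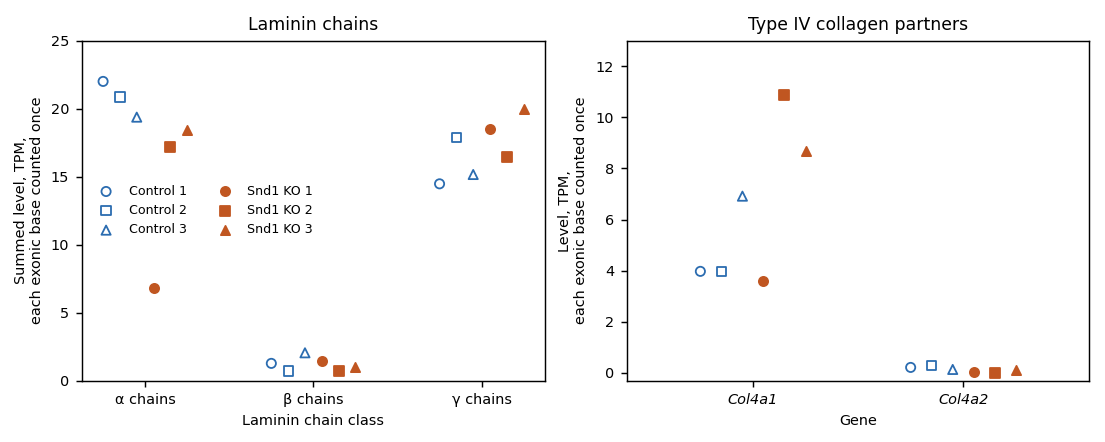
The left panel shows the summed per-length TPM (y axis) of the α, β and γ laminin chains (x axis) in each clone, and the right panel the per-length TPM of *Col4a1* and *Col4a2*. Open blue symbols are control clones and filled orange symbols *Snd1* KO clones. Laminin β chains stay at or below 2.04 per-length TPM in every clone and *Snd1* KO 1 has the lowest α sum, at 6.78, while *Col4a2* lies near 0 in all clones.

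Among laminins, the α and γ classes were each carried by 1 or 2 genes. *Lamc1*, which joins most laminin trimers, was at 17.1, 21.0 and 17.5 TPM in control and at 17.0, 19.2 and 23.0 TPM in *Snd1* KO. The groups overlapped, at averages of 18.5 ± 2.15 TPM (control) and 19.8 ± 3.04 TPM (*Snd1* KO, SD, n = 3 each), and the log2 difference was 0.08 (SE 0.16). *Lama5*, the main α chain of mature basement membranes, was at 21.4, 17.9 and 22.0 TPM in control and at 6.58, 19.7 and 18.3 TPM in *Snd1* KO. *Snd1* KO 1 was far below the other 5 clones, which overlapped. The log2 difference of -0.56 (SE 0.38, adjusted p = 0.717 in limma) was -0.10 without that clone. *Lama1*, an α chain of embryonic basement membranes, was at 9.57, 11.4 and 5.56 TPM in control and at 2.48, 4.78 and 7.86 TPM in *Snd1* KO. The highest *Snd1* KO clone exceeded the lowest control clone, and the difference did not pass the test (log2 -0.75, SE 0.39, adjusted p = 0.633 in limma). The estimate was -0.41 without *Snd1* KO 1, -1.08 without *Snd1* KO 3 and -1.02 without Control 3.

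The β chain, which every laminin trimer needs, was the lowest of the 3 classes. Summed per length, the β chains were at 1.26, 0.706 and 2.04 per-length TPM in control and at 1.45, 0.688 and 0.981 in *Snd1* KO, or between 3.95% and 13.5% of the γ chains in the 6 clones. *Lamb1* made up most of the sum in Control 3, at 1.82 per-length TPM. On the deposited scale it was at 1.59 TPM there, compared to 0.640 and 0.296 TPM in the other control clones and 0.657, 0.380 and 0.469 TPM in *Snd1* KO. Its log2 difference was -0.24 and, without Control 3, 0.04. *Lamb2* had between 6 and 21 reads in each clone. The sum of α chains was 22.0, 20.9 and 19.4 per-length TPM in control and 6.78, 17.2 and 18.4 in *Snd1* KO. These groups did not overlap, but the sum without a test describes *Lama5* and *Lama1* combined.

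*Lama4*, an α chain of endothelial and muscle basement membranes, was under the filter, with 97, 98 and 9 reads in control and 44, 13 and 23 in *Snd1* KO.

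Integrin transcripts were dominated by few chains. *Itgb1* was at 264, 302 and 197 TPM in control and at 262, 158 and 215 TPM in *Snd1* KO. The groups overlapped (254 ± 53.4 compared to 212 ± 51.7 TPM, SD, n = 3 each), and *Itgb1* made up between 76.2% and 88.9% of all β chains per length. *Itgav* was at 42.1, 88.6 and 54.6 TPM in control and at 41.5, 60.2 and 86.6 TPM in *Snd1* KO, a range of 2.11-fold and 2.09-fold with nearly equal means. *Itgb5* was at 41.3, 48.6 and 52.2 TPM in control and at 29.7, 44.8 and 53.6 TPM in *Snd1* KO. The groups of both genes overlapped. The other β partners of αv differed from these, since *Itgb3* and *Itgb6* had at most 4 reads in any clone and *Itgb8*, whose product binds latent TGF-β together with αv, was at an intermediate level.

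*Itgb8* was at 12.0, 8.10 and 3.81 TPM in Control 1, 2 and 3 and at 1.21, 2.99 and 4.94 TPM in *Snd1* KO 1, 2 and 3. Control 1 and Control 2 were above all *Snd1* KO clones, whereas Control 3 lay below *Snd1* KO 3. The mean in *Snd1* KO was 38.2% of control (log2 difference -1.15, SE 0.48, unadjusted p = 0.0504, adjusted p = 0.607 in limma). The estimate ranged from -1.54 without Control 3 to -0.77 without *Snd1* KO 1.

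The laminin-binding α chains α3 and α6 were both present. *Itga3* (chromosome 11, 95044474 to 95076801, minus strand), whose product pairs with the β1 chain, was at 5.04, 5.22 and 10.7 TPM in Control 1, 2 and 3 and at 11.5, 11.5 and 11.4 TPM in *Snd1* KO 1, 2 and 3. The 3 *Snd1* KO clones were within 1.01-fold of each other and above all control clones, but Control 3 was close to them and about 2.12-fold above Control 1. Control clones averaged 6.98 ± 3.21 TPM and *Snd1* KO clones 11.5 ± 0.0338 TPM (SD, n = 3 each). In limma the log2 difference was 0.71 (SE 0.27, unadjusted p = 0.0357, adjusted p = 0.607), and the exact two-sided permutation test gave p = 0.1. Without Control 3 the log2 difference was 1.02. After median-ratio scaling, quantile normalization or voom on the recovered reads, Control 3 no longer lay below all *Snd1* KO clones and the groups overlapped. *Itga6* was at 27.6, 31.3 and 37.7 TPM in control and at 43.4, 28.5 and 43.3 TPM in *Snd1* KO, with overlapping groups (log2 difference 0.23, SE 0.20, between 0.13 and 0.43 with 1 clone left out). *Itgb4*, the other β partner of α6, had 1 read in 1 clone.

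*Itga4*, whose product binds fibronectin and VCAM1 together with the β1 or β7 chain, was at 5.53, 5.78 and 5.16 TPM in control and at 1.82, 5.91 and 14.1 TPM in *Snd1* KO 1, 2 and 3. The control clones were within 1.12-fold, whereas the *Snd1* KO clones spanned 7.76-fold on either side of them, the widest log2 range within *Snd1* KO of any member tested (2.42). The log2 difference was 0.04 and lay between -0.56 and 0.66 with 1 clone left out. *Cerkl* overlaps 8.04% of the exonic bases of *Itga4* on the opposite strand, and whether counting used the strand is not given. The collagen-binding chains were low, with per-length means of 1.30 (*Itga2*), 1.22 (*Itga10*) and 0.649 TPM (*Itga1*). On the deposited scale *Itga2* was at 1.54 to 2.82 TPM, *Itga10* at 0.681 to 1.29 TPM and *Itga1* at 0.322 to 1.91 TPM over the 6 clones. All 3 had overlapping groups. A gene model on the same strand, *Gm42957*, overlaps 33.5% of the exonic bases of *Itga10*, so that its value is uncertain. Of 5 leukocyte α chains none passed the filter. *Itgal* reached 73 reads in *Snd1* KO 1, compared to 6 to 18 reads in the other clones.

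Across the 30 members tested, the distance between clones of one group was larger than for genes in general, mainly within *Snd1* KO. The median log2 range was 0.47 among control clones and 0.99 among *Snd1* KO clones, compared to 0.42 and 0.47 for all genes tested. Over all 6 clones the median range was 1.15 for members and 0.74 for all genes, and 4 of 30 members (13.3%) spanned at least 2 log2 units, beside 9.93% of all genes. *Snd1* KO 1 was the highest clone for 9 members and the lowest for 10, in all 19 of 30 (63.3%), whereas it was the extreme clone for 41.4% of all genes tested. Markers of other islet endocrine cells also stood apart in this clone, with a sum over 8 genes of 1103 TPM compared to 57.5 to 314 TPM in the other clones, mostly *Gcg*, the glucagon gene. Their part in the values of the members was not tested. The members for which it was highest included *Col6a3*, *Col6a6*, *Col8a1*, *Col18a1* and *Col22a1*, and those for which it was lowest included *Lama1*, *Lama5*, *Col4a1*, *Itga4* and *Itgb8*. Members are not independent of each other, and these shares were not tested.

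**Figure D4:**
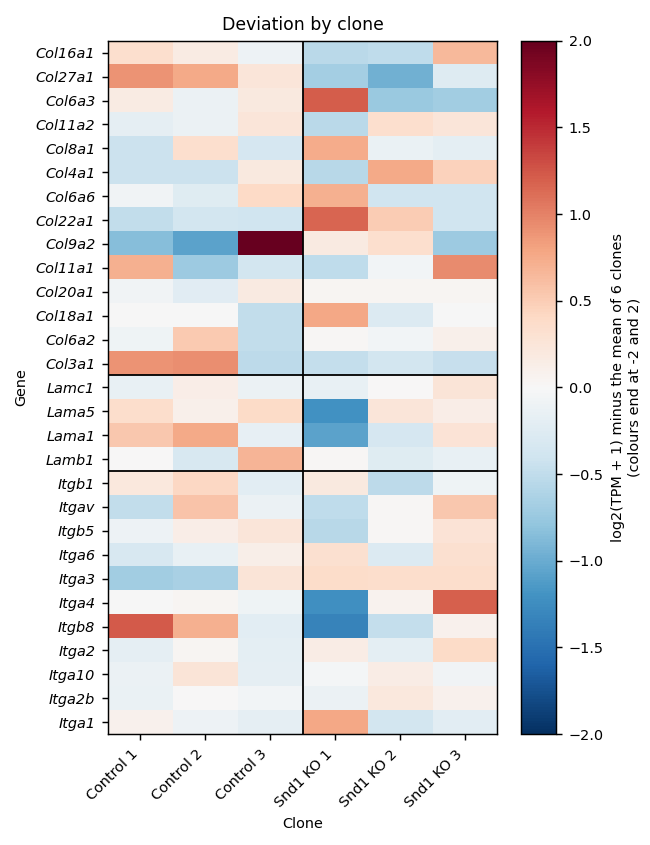
Each row is 1 of 29 members tested and each column a clone. The color gives log2(TPM + 1) minus the mean of the 6 clones, from blue (lower) to red (higher), and colors end at -2 and 2. The column of *Snd1* KO 1 holds many of the deep colors, with *Col6a3* and *Col22a1* in red and *Lama5*, *Lama1*, *Itga4* and *Itgb8* in blue, and Control 3 stands out for *Col9a2*.

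The outcome at the looser limit also depended on single clones. Without Control 3, 4 of 30 members passed an unadjusted p under 0.05 and 2-fold (*Itga3* higher, *Col27a1*, *Col3a1* and *Itgb8* lower, of which *Col3a1* passed the filter only through control), beside 4.57% of all genes, and the groups of 9 members did not overlap, beside 35.0%. Without *Snd1* KO 3, *Col22a1* was higher and *Col27a1*, *Itgb8* and *Lama1* were lower at this limit, beside 2.46%. Without *Snd1* KO 1, only *Col27a1* passed, beside 4.32%, and the groups of 9 members did not overlap, beside 33.5%. *Col27a1* passed this limit in each of the 6 fits with 1 clone left out.

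Some collagens at low level differed most between Control 1 and Control 2 and the rest. *Col3a1*, the collagen III chain, had 122, 119 and 0 reads in Control 1, 2 and 3 and 2, 7 and 3 reads in *Snd1* KO 1, 2 and 3. Control 1 and Control 2 were above all other clones and Control 3 was the lowest, so that the groups overlapped, and 0 reads allow a level of up to 3 reads. Its log2 difference was -0.87 (SE 0.44, adjusted p = 0.621 in limma), and it was -1.35 without Control 3 and between -0.63 and -0.90 without any other clone. *Col3a1* passed the filter only through Control 1 and Control 2, so that its difference, also where a fit with clone quality weights called it, is no support for one between the groups. Of the 30 members tested, 3 had a mean under 0.5 TPM in 1 of the groups. *Col1a1* had 34, 38 and 2 reads in control and 9, 8 and 15 in *Snd1* KO, and *Col1a2* had 32, 34 and 3 reads in control and 10, 18 and 19 in *Snd1* KO. For both genes too, Control 1 and Control 2 were highest and Control 3 was lowest. *Col3a1*, *Col1a1* and *Col1a2* were chosen after their values were seen. Control 1 and Control 2 were the highest clones for 8 of the 44 collagens and for 2 of the 14 tested (14.3%), beside 16.1% of all genes tested, a share near the background. Other collagens of connective tissue had another order, such as *Col5a1*, with 12, 15 and 5 reads in control and 1, 8 and 14 in *Snd1* KO, and *Col14a1*, with 42, 37 and 45 reads in control and 33, 23 and 49 in *Snd1* KO.

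Fibroblast and stellate cell markers had a similar order in the control clones. Their sum over 10 genes was 23.4, 14.5 and 2.69 TPM in control and 1.40, 0.898 and 1.25 TPM in *Snd1* KO, and 2 of the 10 passed the filter. In control most of it was *Pdgfra*, the PDGF receptor α, with 2412, 978 and 268 reads in control and 3, 4 and 13 in *Snd1* KO. *Dcn*, which codes for the matrix proteoglycan decorin, had 52, 59 and 3 reads in control and 4, 7 and 5 in *Snd1* KO. *Postn* had 12, 19 and 0 reads in control and 0 in each *Snd1* KO clone, and *Fap* was at or below 3 reads in every clone. Other markers of the list had another order, such as *Thy1*, with 61, 23 and 5 reads in control and 27, 4 and 14 in *Snd1* KO, and *Pdgfrb*, with 0, 5 and 1 reads in control. Control 1 and Control 2 were the highest clones for 7 of the 10 genes. The same held for 6 of 10 endothelial and 4 of 9 leukocyte genes, at low reads, such as *Kdr* with 8, 10 and 0 reads in control and 1 in each *Snd1* KO clone, and *Lyz2* with 28, 36 and 0 reads in control and 2, 3 and 3 in *Snd1* KO. Among all genes tested the share was 16.1%, but it covers only genes past the filter. Only 1 of the endothelial and 2 of the leukocyte genes passed it, so that this share is no like background for these counts. Whether other cells or their RNA had a part in the values of *Col3a1*, *Col1a1* and *Col1a2* was not tested, and in bulk RNA fewer cells of a type and less RNA per cell cannot be told apart. The endothelial list as a whole was higher in *Snd1* KO, with sums of 2.76, 2.36 and 2.45 TPM in control and 3.36, 10.9 and 7.61 TPM in *Snd1* KO, through *Plvap*, which had 17, 7 and 21 reads in control and 28, 102 and 75 in *Snd1* KO. The leukocyte list summed to between 2.27 and 6.97 TPM, and its gene *Csf1r* had 7, 4 and 16 reads in control and 14, 6 and 44 in *Snd1* KO. Of the acinar and duct list, 7 of 8 genes were at or below 3 reads in every clone.

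**Figure D5:**
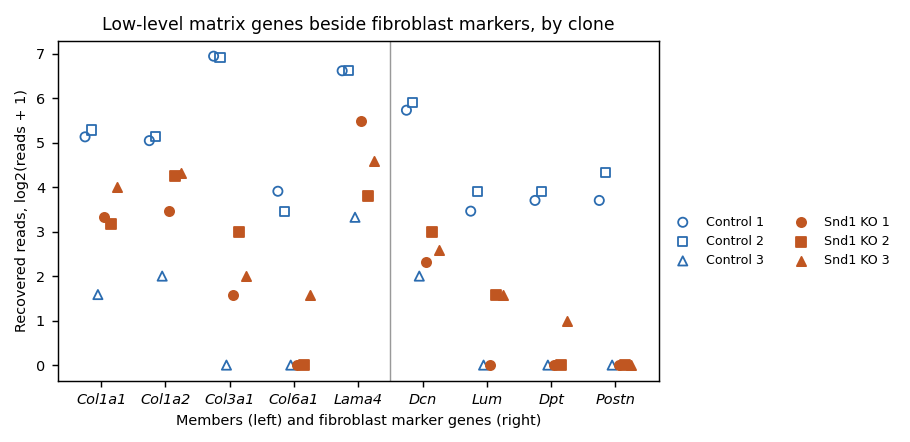
The y axis shows recovered reads as log2(reads + 1) and the x axis 5 low members (left) and 4 fibroblast marker genes (right). Open blue symbols are control clones and filled orange symbols *Snd1* KO clones. Control 1 and Control 2 are the 2 highest clones for each of the genes drawn, which were chosen after their values were seen, and Control 3 has 0 reads for *Col3a1*, *Col6a1*, *Lum*, *Dpt* and *Postn*.

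The 52 members under the filter were not tested. Among those named here after their values were seen, *Col7a1*, the collagen of anchoring fibrils, had 32, 27 and 41 reads in control and 61, 72 and 51 in *Snd1* KO, and its groups did not overlap. *Lamc3*, the γ3 laminin chain, had 0, 1 and 0 reads in control and 2, 5 and 10 in *Snd1* KO. The transmembrane collagen *Col25a1* had 6, 1 and 3 reads in control and 12, 8 and 20 in *Snd1* KO. Without a filter, the groups did not overlap in 9 of 81 members, beside 10.4% of all genes. Values this low carry a large counting error.

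Genes that act with these families were examined as lists. Of 33 genes for collagen synthesis and processing, 23 were tested and 0 passed the adjusted threshold. 5 were higher and 18 lower, with a median log2 difference of -0.21, and at an unadjusted p under 0.05 and 2-fold 0 were higher and 2 lower. *Pcolce*, the enhancer of procollagen C-proteinase, was at 6.38, 3.17 and 1.87 TPM in control and at 0.129, 0.888 and 1.03 TPM in *Snd1* KO. The groups did not overlap (log2 difference -1.45, SE 0.42, adjusted p = 0.568 in limma). *Fkbp14*, a prolyl isomerase of the endoplasmic reticulum, was at 28.8, 28.9 and 12.9 TPM in control and at 12.0, 8.03 and 11.1 TPM in *Snd1* KO. Control 3 was close to the *Snd1* KO clones, and the log2 difference was -1.04 (SE 0.33, adjusted p = 0.570 in limma). In this list 5 of 23 genes had groups that did not overlap, all below control, beside 4.03% of all genes tested below control, and the 2 past the looser limit stood beside 0.724%.

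Of 30 other basement membrane and matrix proteins, 13 were tested and 0 passed the adjusted threshold, with 4 higher and 9 lower and a median log2 difference of -0.32. In 3 of 13 genes, all below control, the groups did not overlap, beside 4.03% of all genes tested. *Fbln1*, the matrix glycoprotein fibulin, was at 5.68, 2.32 and 3.64 TPM in control and at 0.398, 1.33 and 1.69 TPM in *Snd1* KO (log2 difference -1.18, SE 0.37). *Tinagl1*, a matrix protein related to cathepsins, was at 1.05, 2.74 and 0.329 TPM in control and at 0, 0 and 0.061 TPM in *Snd1* KO. The groups of both did not overlap, and they were the 2 genes of the list lower at the looser limit (background 0.724%). *Tinagl1* passed the filter only through the control clones (mean 1.37 TPM, compared to 0.0203 TPM in *Snd1* KO), so that its count carries no weight.

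Of 35 integrin adaptors and focal adhesion genes, 30 were tested and 0 passed the adjusted threshold, with 11 higher and 19 lower and a median of -0.10. The groups did not overlap in 2 genes above and 4 below control, beside 9.69% and 4.03% of all genes tested. *Src*, a tyrosine kinase activated at integrin contacts, was at 12.3, 11.2 and 5.98 TPM in control and at 2.04, 4.19 and 2.72 TPM in *Snd1* KO. The groups did not overlap, and it was the only gene of the list past the looser limit, which 0.724% of all genes tested passed in this direction (log2 difference -1.42, SE 0.32, unadjusted p = 0.00332, adjusted p = 0.537 in limma). Of 24 matrix proteases and inhibitors, 16 were tested and 0 passed the adjusted threshold, with 4 higher and 12 lower and a median of -0.20. In 1 gene above and 1 below control the groups did not overlap, beside 9.69% and 4.03%, and 1 gene was past the looser limit, in the upward direction (background 1.52%). *Mmp15*, a membrane-bound matrix metalloproteinase, was at 1.19, 0.694 and 1.49 TPM in control and at 3.42, 2.82 and 3.64 TPM in *Snd1* KO, without overlap (log2 difference 1.03, SE 0.23, adjusted p = 0.537 in limma). Of 20 non-integrin matrix receptors, 15 were tested and 0 passed either limit, with 3 higher and 12 lower and a median of -0.14, and the groups did not overlap in 1 gene above and 2 below control, beside 9.69% and 4.03%.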

How the data were processed

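The authors sequenced 100-base paired ends of MIN6 mRNA libraries, processed them on the Genialis platform and deposited TPM per gene. The submitters' processing notes name FastQC, Trimmomatic, HISAT2, HTSeq, DESeq2 and mm10, without roles or versions. Whether both mates were counted is not given in the sources used here, and the recovered reads exceed those stated per library. The deposited TPM listed 53801 mouse genes and 99 spike-in controls, which were left out. GENCODE M21 (GRCm38) matched 53706 genes. Within 0.01 of a whole number, 99.5% of values above 0 gave whole reads. Intervals and floors from these reads cover counting error only.

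The comparison used limma 3.58.1 (lmFit, eBayes with a trend) in R 4.3.3 on log2(TPM + 1) for genes averaging 0.5 TPM or more. The same fit was also run on simulated data, with no outcome given here. Their spread was fixed and not taken from these clones, so that they do not show how the fit performs at the spread seen here. Python 3.11.15, pandas 2.3.3, numpy 2.4.6 and matplotlib 3.10.9 were used. Samples were grouped by their labels, which give no batch and number the clones without pairing them. Members and lists were chosen with earlier results of these data known. Named by rule were the 6 members of each family with the highest level, members without overlap and a change of at least 1.5-fold, members at an unadjusted p under 0.05 and 2-fold, the 5 with the widest range within a group, chain partners, *Snd1*, and up to 4 genes per list at the same limit. Other genes were named after their values were seen. The values of 1 member tested are not reported here, though it is included in the counts and sums. Alternatives were a pseudocount of 0.1, no filter, a filter of 5 TPM, quantile normalization, median-ratio scaling, no trend, clone quality weights, a replicate block, leaving out each clone, voom on recovered reads, and exonic bases counted once.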

Additional observations from a re-analysis of the deposited data

How the results depend on the processing

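The count of members called was 0 in every fit run except that with clone quality weights, which called 2 (*Col27a1* and *Col3a1*, the latter past the filter only through control). All genes called were 1 as reported, 895 with weights, and 0 with no filter, no trend, voom or any 1 clone left out other than *Snd1* KO 2. The clone numbers do not pair the samples (correlations of the deviations of same-numbered clones of 0.05, -0.12 and -0.07), and the replicate block gave 0 genes called and 0 members. Members at an unadjusted p under 0.05 and 2-fold were 1 as reported, 2 with weights, exonic bases counted once, median-ratio scaling, quantile normalization or voom, and between 1 and 4 with 1 clone left out. Members without overlap were 2 as reported, 1 with median-ratio scaling, quantile normalization or voom, 3 with exonic bases counted once, 9 of 81 with no filter (10.4% of all 30973 genes without it), and between 2 and 9 with 1 clone left out.

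The collagen median (0.04) was -0.21 with a filter of 5 TPM, 0.21 with a pseudocount of 0.1, -0.13 with quantile normalization and 0.25 with voom, and lay between -0.032 and 0.15 with 1 clone left out. The laminin median (-0.24) was -0.017 with weights, -0.56 at 5 TPM, -0.028 with no filter, -0.42 with a pseudocount of 0.1, -0.40 with quantile normalization and -0.42 with voom, and lay between -0.46 and 0.039 with 1 clone left out. Single genes changed sign only where the difference was small. With weights, *Col16a1* was at 0.20, *Col8a1* at -0.13, *Itgb5* at 0.14 and *Col9a2* at 0.26. With a pseudocount of 0.1, *Itga4* was at -0.030 and *Col9a2* at 0.27. With median-ratio scaling, *Col11a2* was at -0.00020, *Itgav* at -0.015 and *Itga4* at -0.0012. With quantile normalization, *Col11a2* was at -0.13 and *Itga4* at -0.076. With voom, *Col11a2* was at -0.0011, *Itga4* at -0.043 and *Col9a2* at 0.48. With 1 clone left out, the difference crossed 0 and lay between -0.80 and 0.17 for *Col6a3*, -0.43 and 0.13 for *Col6a6*, -0.13 and 0.31 for *Col11a2*, -0.026 and 0.52 for *Col8a1*, -0.71 and 0.89 for *Col9a2*, -0.027 and 0.18 for *Lamc1*, -0.46 and 0.039 for *Lamb1*, -0.23 and 0.32 for *Itgav*, -0.36 and 0.055 for *Itgb5*, and -0.56 and 0.66 for *Itga4*. In the other fits run, 307 values of single genes kept their sign and side of the threshold. Where a value moved, the cause was not tested beyond what the alternative itself changes. Exact tests of 3 against 3 clones cannot reach p = 0.05. For members with few reads, counting error adds to the spread between clones.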

Other observations

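Beyond the genes named by rule, genes of the 5 lists with groups that did not overlap were looked at after their values were seen, so that their directions are descriptions. *Smoc1*, a calcium-binding protein of basement membranes, was at 80.8, 86.8 and 65.9 TPM in control and at 35.2, 35.6 and 49.0 TPM in *Snd1* KO. All *Snd1* KO clones lay below all control clones (log2 difference -0.95, SE 0.17, adjusted p = 0.374 in limma). *Bmp1*, the procollagen C-proteinase whose enhancer is *Pcolce*, was at 171, 145 and 178 TPM in control and at 87.0, 98.0 and 132 TPM in *Snd1* KO. It too was lower in every *Snd1* KO clone (log2 difference -0.65, SE 0.18, adjusted p = 0.568 in limma).

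Of the non-integrin receptors, *Dag1*, which codes for the laminin receptor dystroglycan, was at 30.0, 30.9 and 48.5 TPM in control and at 58.6, 49.5 and 59.8 TPM in *Snd1* KO. Control 3 lay just under the lowest *Snd1* KO clone (log2 difference 0.63, SE 0.20, adjusted p = 0.571 in limma). *Bcam*, a receptor for the laminin α5 chain, was at 492, 542 and 456 TPM in control and at 366, 286 and 355 TPM in *Snd1* KO, without overlap (log2 difference -0.57, SE 0.14, adjusted p = 0.556 in limma). None of these genes passed the adjusted threshold.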
